A study of Mus musculus with 22 samples.

Results

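The genes described here are 10 members of the negative feedback circuit and immediate output of the RAS-ERK (MAPK) pathway: Spry1, Spry2, Spry4, Spred1, Spred2, Dusp4, Dusp5, Dusp6, Etv4 and Egr1. They were chosen by name, with earlier results of these data known. Their regions were all peaks of open chromatin that overlapped, by at least 1 bp, the bounds of a gene in mm10 (GRCm38) or 5 kb on either side. This gave 27 of the 96049 peaks in the deposited table: 5 for Spred2, 3 each for Spry1, Spry2, Spry4, Spred1, Dusp4 and Dusp6, 2 for Etv4, and 1 each for Dusp5 and Egr1. A start peak is the strongest peak at a gene's annotated start, or within 1 kb of it. Where strand was not known (Spry4, Dusp4, Etv4 and Egr1), either annotated end was allowed.

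Growth factor receptors switch on RAS, which drives a kinase chain from RAF through MEK to ERK. Active ERK induces genes whose products act back on the chain: SPRY and SPRED proteins act near RAS and RAF, and DUSP phosphatases remove phosphate from ERK itself. In the mouse testis, GDNF acting through GFRA1 and RET, and FGFs acting through their receptors, maintain undifferentiated spermatogonia, whereas KIT ligand acts through KIT on differentiating ones.

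The data are ATAC-seq libraries, in which Tn5 transposase cuts and tags accessible DNA, from germ cells of C57BL/6 mice 8 to 12 weeks old. Spermatogonia were sorted 7 days after tamoxifen. TERT-deleted and control (TERT-heterozygous) cells gave 3 and 3 libraries of MCAM-high KIT-negative cells, 3 and 2 of MCAM-medium KIT-negative cells, and 3 and 3 of KIT-positive (MCAM-medium) cells. The KIT-negative populations are labelled undifferentiated and the KIT-positive one differentiating. Both genotypes carry the same entry, TertCreER/+:Rosalsl-Tdtomato/+, in which the Tert locus drives a tamoxifen-dependent Cre and a reporter marks recombined cells. The genotype thus rests on the sample titles, the floxed allele is not named in the labels, and genotype and mice cannot be told apart. A further 5 control libraries, from TertTdtomato/+ mice with no time after tamoxifen given, came from later germ cells. Of these, 2 are titled spermatocytes (replicates 1 and 2) and 3 round spermatids (replicates 3 to 5), but for 4 of them the library name gives the other cell type. They were therefore kept as 1 group. All 5 library names also share 1 stem, and nothing states that they came from separate mice. Among spermatogonia, library names share a stem within each genotype and replicate number, so the sorted populations of a number may have 1 source, which the labels do not state.

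Libraries held between 922085 and 3358377 counts in peaks, so that 3 counts, taken as the limit of detection where a count is 0, corresponded to 0.893 to 3.25 CPM (counts scaled to a common library total). Signal below is CPM after TMM scaling over all 22 libraries, and it measures accessibility, not RNA. Marker genes were each read at 1 peak within 1 kb of an annotated gene end, and peaks elsewhere in these genes were not counted. The Kit peak averaged 68.0 ± 19.9 CPM in deleted and 63.6 ± 6.53 CPM in control KIT-positive cells (SD, n = 3 each), against 23.5 to 34.5 CPM in the 4 KIT-negative groups. Summed peaks of 6 spermatid genes with a peak (of 7) reached 221 to 320.0 CPM in the later libraries and 23.3 to 41.7 CPM in all others. The summed peaks of 10 undifferentiated spermatogonial genes, however, were 271 to 429 CPM across all 17 spermatogonial libraries, with KIT-positive libraries inside that range, and 124 to 155 CPM in later ones. Markers of somatic testis cells were not at 0, and in spermatogonia the Sertoli sum lay above that of the spermatid genes. In the later libraries, the Sertoli list (4 of 5 genes with a peak, Gata4 without) summed to 38.8 to 46.6 CPM, against 48.8 to 97.3 CPM in spermatogonia. The Leydig list had a peak at Cyp11a1 only (6.08 to 15.5 CPM in later libraries, 14.7 to 52.0 CPM in spermatogonia). The immune list had peaks for 2 of 5 genes (2.35 to 10.2 CPM in later libraries, 2.42 to 10.8 CPM in spermatogonia), with none at Ptprc, Csf1r or Adgre1. Of the peritubular and endothelial list, 3 of 5 genes had a peak (12.6 to 29.0 CPM in later libraries, 31.2 to 69.0 CPM in spermatogonia), with none at Pecam1 or Cdh5. The part of these cells in any difference below was not tested. Replicates agreed no closer than sampling noise allows (lowest chi-square per degree of freedom 1.78), so no library was counted as a copy of another.

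Promoter sequence was held for 6 of the 10 genes in the RefSeq table (GRCm38.p6): Spry1, Spry2, Spred1, Spred2, Dusp5 and Dusp6. For 5 of them the start peak covered all 250 bases before the annotated start. All 5 are shown. Their start peaks differed in outcome, described gene by gene below: Dusp6, Spred2 and Spry1 lost signal in later germ cells, whereas Spred1 and Dusp5 did not pass in that comparison. Capitals mark matches to any of 7 motifs searched on both strands.
Spry1 (chr3:37639697-37639946, + strand): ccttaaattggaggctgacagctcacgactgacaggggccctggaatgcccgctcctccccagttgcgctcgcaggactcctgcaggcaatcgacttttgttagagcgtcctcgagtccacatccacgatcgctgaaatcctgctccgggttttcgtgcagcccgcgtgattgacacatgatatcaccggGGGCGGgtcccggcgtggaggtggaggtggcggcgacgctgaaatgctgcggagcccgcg
Spred1 (chr2:117120821-117121070, + strand): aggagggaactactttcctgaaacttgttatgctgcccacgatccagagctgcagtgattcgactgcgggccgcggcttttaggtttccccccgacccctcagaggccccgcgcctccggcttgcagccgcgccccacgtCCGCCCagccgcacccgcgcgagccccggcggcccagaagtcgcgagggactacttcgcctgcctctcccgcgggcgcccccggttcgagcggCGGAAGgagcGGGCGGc
Spred2 (chr11:19924192-19924441, + strand): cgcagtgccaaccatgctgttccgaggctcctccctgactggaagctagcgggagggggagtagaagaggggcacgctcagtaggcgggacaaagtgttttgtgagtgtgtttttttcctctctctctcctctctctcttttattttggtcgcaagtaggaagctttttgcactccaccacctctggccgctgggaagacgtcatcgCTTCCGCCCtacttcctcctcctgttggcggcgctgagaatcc
Dusp5 (chr19:53528895-53529144, + strand): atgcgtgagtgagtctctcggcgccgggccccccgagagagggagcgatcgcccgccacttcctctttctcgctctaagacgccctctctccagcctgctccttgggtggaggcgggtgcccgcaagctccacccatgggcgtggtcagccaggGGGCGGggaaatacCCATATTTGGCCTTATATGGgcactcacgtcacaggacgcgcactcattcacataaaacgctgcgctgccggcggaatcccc
Dusp6 (chr10:99262981-99263230, + strand): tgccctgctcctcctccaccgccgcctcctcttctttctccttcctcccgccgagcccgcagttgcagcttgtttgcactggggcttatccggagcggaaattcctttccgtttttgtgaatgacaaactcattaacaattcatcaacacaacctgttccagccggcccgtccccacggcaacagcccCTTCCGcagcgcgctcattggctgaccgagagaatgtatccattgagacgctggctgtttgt
The motifs were the ETS core CGGAAG and the longer ETS motif CCGGAAGT (ETS factors, among them ETV4, carry ERK signals to promoters), the CArG box bound by serum response factor, TGACGTCA (bound by CREB), TGANTCA (bound by AP-1), the E-box CACGTG and the GC box GGGCGG. The ETS core was found once in Spred1, Spred2 and Dusp6, and in 13.8% of all 27025 promoters of that length in the table. In Spred2 it overlapped the GC box, and both are read there on the reverse strand. The GC box was found at 2 places in Spred1 and once in Spry1, Spred2 and Dusp5, and in 32.9% of promoters. Dusp5 held 2 CArG boxes side by side, the first starting 82 and the second 72 bases before the annotated start, a motif present in 1.40% of promoters. The longer ETS motif (2.93% of promoters), the CREB motif (1.62%), the AP-1 motif (6.87%) and the E-box (6.05%) had no match in the 5 windows. A match describes the letters only.

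Across the 7 groups, the clearest change at these genes was a loss of signal in later germ cells. Of 25 member peaks that could be tested, 11 fell and 3 rose in later germ cells relative to control KIT-positive spermatogonia (edgeR quasi-likelihood test, Benjamini-Hochberg adjusted p under 0.05 over 73134 peaks). At the 10 start peaks, 6 fell (Spry1, Spry2, Spred2, Dusp6, Etv4 and Egr1), 1 rose (Dusp4), and Spry4, Spred1 and Dusp5 did not pass. In the same comparison, 22.8% of all tested peaks were called lower and 29.2% higher. Among peaks at gene ends these shares were 28.4% and 24.0%. The members' shares were 44.0% lower and 12.0% higher. Their median log2 fold change was -0.48, and that of the start peaks -1.21, against 0.12 over all tested peaks and -0.12 over gene-end peaks. All 11 lower peaks lay at the 6 genes whose start peak fell, so the members' shares count neighbouring peaks of a gene separately. When any 1 library was left out, 10 to 13 member peaks were called. Because the members were chosen with earlier results of these data known, their shares are not an independent comparison.

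In bulk libraries, fewer open cells and less accessibility per cell cannot be told apart. The later libraries also came from mice of another genotype entry, TertTdtomato/+, with no time after tamoxifen given. In every comparison with later germ cells, stage therefore cannot be told apart from mouse line or tamoxifen treatment. The Sertoli, Cyp11a1, and peritubular and endothelial values given above moved the same way as the 11 lower peaks, and the share of nonzero peak counts that were even numbers was 49.3 to 49.9% among later libraries, against 50.7 to 73.9% among control KIT-positive libraries. Their part in the result was not tested. The median of all peaks was 0.12 with TMM, 0.31 with DESeq2 size factors and 0.10 with total counts. DESeq2 called 13 member peaks, and 17 had an unadjusted p under 0.05.

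**Figure D1:**
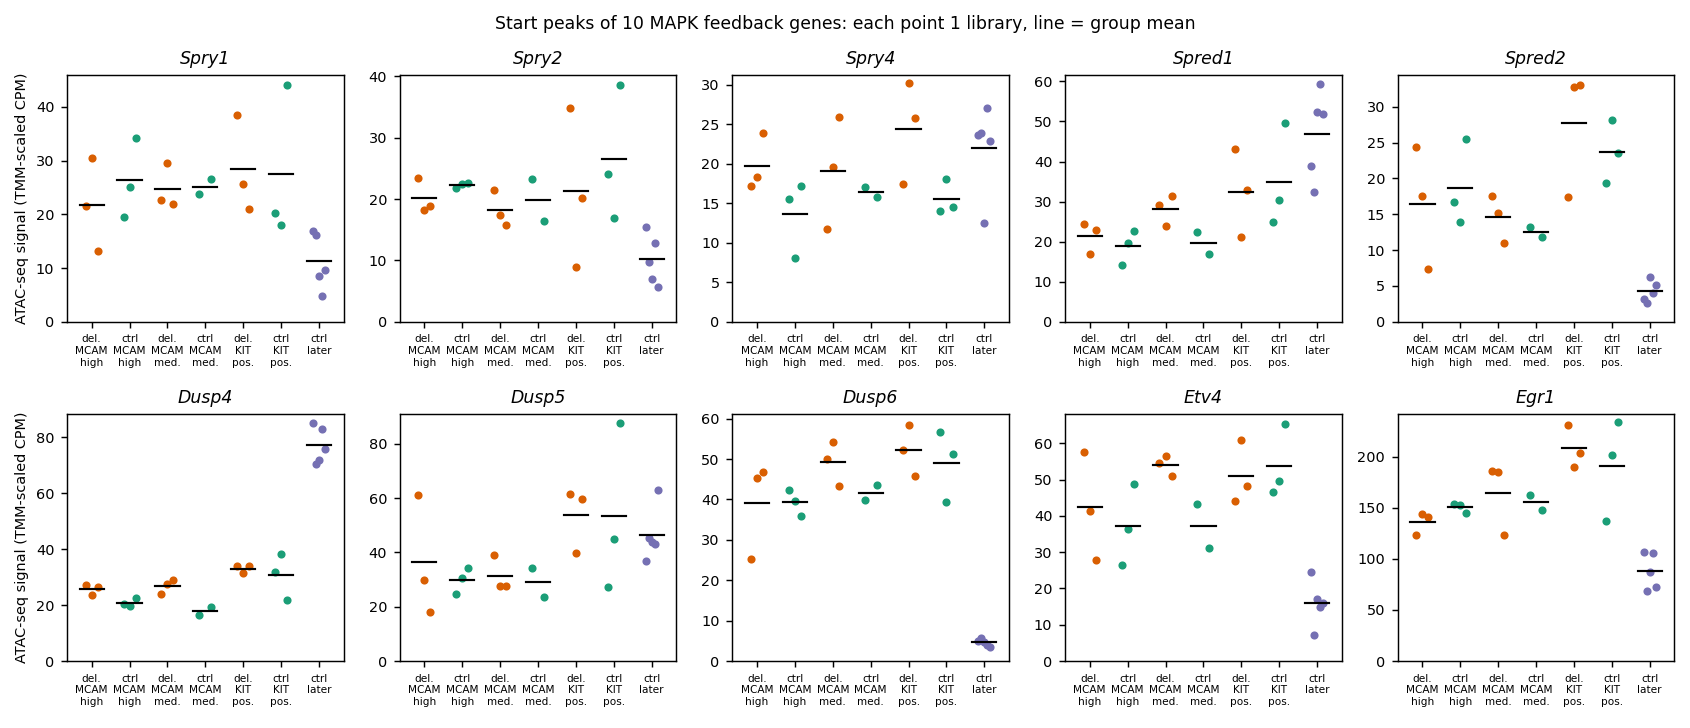
ATAC-seq signal (TMM-scaled CPM, y axis from 0) at the start peak of each of the 10 genes in the 7 groups; each point is 1 library and each line a group mean. At Dusp6, Spred2, Etv4 and Egr1 all 5 later libraries lie below every other library, and at Dusp4 all 5 lie above.

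Spry1 and Spry2 encode Sprouty proteins, membrane-associated inhibitors that are induced by growth factors and restrain RAS-RAF signalling. The Spry1 start peak (chr3:37639682-37640597) held 21.6, 30.5 and 13.2 CPM in deleted and 19.6, 25.1 and 34.3 CPM in control MCAM-high cells. It held 22.7, 29.7 and 22 CPM in deleted and 23.7 and 26.6 CPM in control MCAM-medium cells, and 38.5, 25.7 and 20.9 CPM in deleted and 20.2, 18 and 44.1 CPM in control KIT-positive cells. In the later libraries it held 16.9, 16.2, 8.61, 4.73 and 9.71 CPM. The spermatogonial groups overlapped each other, and all 5 later libraries lay below all 3 control KIT-positive ones. The log2 fold change of later germ cells minus control KIT-positive cells was -1.30 ± 0.34 (± SE, adjusted p = 0.00119 in edgeR). The call was lost without control KIT-positive replicate 3, the highest of its group (log2 fold change -0.78, adjusted p = 0.112). It was also lost when the 3 libraries titled round spermatids were left out (log2 fold change -0.69, adjusted p = 0.161). The libraries titled spermatocytes held the higher values, 16.9 and 16.2 CPM. A weak peak 3795 bp beyond the gene's end (chr3:37648394-37648940) also fell, with 2.31 ± 1.68 CPM in later germ cells (SD, n = 5) and 6.96 ± 3.75 CPM in control KIT-positive cells (SD, n = 3), a log2 fold change of -1.60 ± 0.61 (± SE, adjusted p = 0.0235 in edgeR). That call was lost without control KIT-positive replicate 1, later replicate 1 or later replicate 4 (highest adjusted p = 0.175) and without the libraries titled round spermatids (0.174). The remaining Spry1 peak (chr3:37640899-37641099), inside the gene, held 3.80 ± 1.89 CPM in later germ cells (SD, n = 5) and 8.52 ± 1.12 CPM in control KIT-positive cells (SD, n = 3), and it was not called in any comparison.

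The strongest peak near the Spry2 start (chr14:105897094-105897588) lay 275 bp outside the annotated start on the reverse strand. It held 34.9, 8.99 and 20.1 CPM in deleted and 24.1, 16.9 and 38.6 CPM in control KIT-positive cells, the widest spread of the spermatogonial groups at this peak. Deleted and control MCAM-high cells averaged 20.2 ± 2.82 and 22.3 ± 0.501 CPM (SD, n = 3 each). Deleted and control MCAM-medium cells averaged 18.2 ± 2.94 CPM (n = 3) and 19.8 ± 4.85 CPM (n = 2). The later libraries, with 15.5, 9.70, 7.04, 12.8 and 5.71 CPM, all lay below the control KIT-positive ones, and the peak fell by a log2 fold change of -1.40 ± 0.34 (± SE, adjusted p = 4.98e-04 in edgeR). That call held when each of the 8 libraries was left out in turn (highest adjusted p = 0.0304). A peak inside the gene, 301 bp from its start (chr14:105896178-105896518), fell with it, at -1.53 ± 0.52 (± SE, adjusted p = 0.0121 in edgeR). Its call was lost without control KIT-positive replicate 1 (adjusted p = 0.0529) and without the libraries titled spermatocytes (0.0768). The next peak upstream of Spry2 (chr14:105898709-105899276, 1890 bp before the start) was not called. It held 19.7 ± 2.08 CPM in later germ cells (SD, n = 5) and 21.4 ± 0.397 CPM in control KIT-positive cells (SD, n = 3), and its log2 fold change of -0.14 ± 0.31 (± SE, adjusted p = 0.740 in edgeR) did not pass.

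The Spry4 start peak was not called in later germ cells in the main analysis. The Spry4 product binds and restrains the same part of the cascade. At its start peak (chr18:38600970-38601632), which also overlaps the bounds of the neighbouring gene Arhgap26, later libraries held 23.6, 23.9, 12.5, 27 and 22.8 CPM and control KIT-positive libraries 14, 18 and 14.5 CPM. Replicate 3 stood below the other 4 later libraries, which all lay above the control KIT-positive range. The log2 fold change of 0.51 ± 0.35 (± SE, adjusted p = 0.211 in edgeR) did not pass. Against control MCAM-high cells the log2 fold change was 0.70 ± 0.33 (± SE, adjusted p = 0.0580 in edgeR). That missed the threshold but passed with DESeq2 size factors (0.91, adjusted p = 0.0143), with DESeq2, and without control MCAM-high replicate 3 (0.0488) or later replicate 3 (0.0436). Among spermatogonia, this peak averaged 19.7 ± 3.59 and 13.6 ± 4.85 CPM in deleted and control MCAM-high cells, and 24.5 ± 6.48 and 15.5 ± 2.21 CPM in deleted and control KIT-positive cells (SD, n = 3 each). A weaker peak at the other end of the gene (chr18:38583986-38584299), near the pseudogene Gm19100, held 3.36 ± 1.55 CPM in later germ cells (SD, n = 5) and 4.20 ± 3.92 CPM in control KIT-positive cells (SD, n = 3), and it was not called in any comparison.

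The peak next to the start peak (chr18:38601696-38602582) lay 349 bp outside the Spry4 bounds and inside those of Arhgap26. It was nearer to the Arhgap26 bound at 38601617 than to Spry4. Of the tested member peaks, it had the largest loss in KIT-positive relative to MCAM-high spermatogonia. It held 7.76, 10.1 and 7.85 CPM in control KIT-positive cells and 26.1, 18 and 36 CPM in control MCAM-high cells, and the groups did not overlap. In deleted cells it held 7.34, 14.1 and 20.1 CPM in KIT-positive and 28, 25.7 and 39.5 CPM in MCAM-high libraries, again without overlap. MCAM-medium cells lay between or near these values, with 18.2, 15.9 and 14.1 CPM in deleted and 24.2 and 25.4 CPM in control libraries. The log2 fold change was -1.13 ± 0.36 (± SE, adjusted p = 0.0284 in edgeR) in deleted and -1.63 ± 0.38 (± SE, adjusted p = 0.00211 in edgeR) in control KIT-positive cells relative to MCAM-high cells. The control call held when each of its 6 libraries was left out (highest adjusted p = 0.0238). The deleted call was lost without KIT-positive replicate 1 (adjusted p = 0.152) or 2 (0.0871), or without MCAM-high replicate 3 (0.144). The difference between the genotypes in this change was 0.50 ± 0.53 on the log2 scale (SE) and did not pass. Later libraries held 15.2, 16.2, 13.3, 14.9 and 13.7 CPM, all above the control KIT-positive libraries and all below the MCAM-high ones. Against control KIT-positive cells the log2 fold change was 0.78 ± 0.38 (± SE, adjusted p = 0.0786 in edgeR) and did not pass with edgeR, but it passed with DESeq2 (adjusted p = 0.0218). Against control MCAM-high cells the peak fell, with a log2 fold change of -0.85 ± 0.30 (± SE, adjusted p = 0.0136 in edgeR), a call lost without control MCAM-high replicate 3 (adjusted p = 0.134), without the libraries titled round spermatids (0.196) and with DESeq2 size factors (0.0627).

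**Figure D2:**
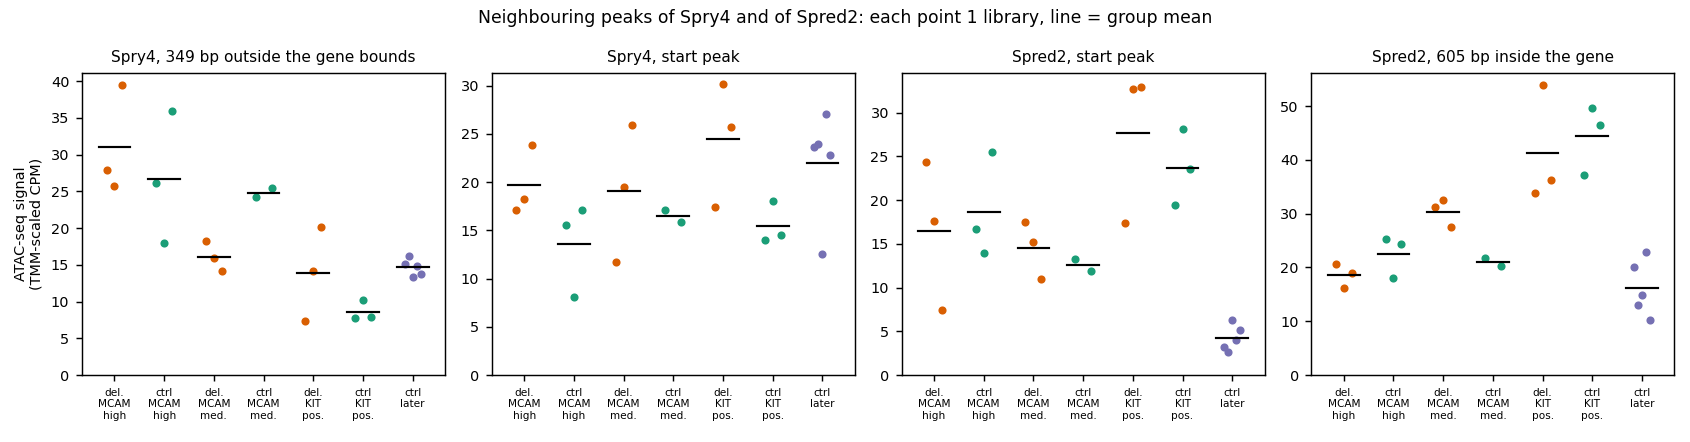
Signal (TMM-scaled CPM, y axis from 0) at neighbouring peak pairs of Spry4 and of Spred2 in the 7 groups; points are libraries and lines group means. The peak 349 bp outside Spry4 is lowest in control KIT-positive cells while the start peak is not, and the Spred2 peak 605 bp inside the gene is higher in KIT-positive than in MCAM-high cells of both genotypes.

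Spred1 and Spred2 encode Sprouty-related proteins that bring neurofibromin, a GTPase-activating protein that switches RAS off, to the membrane. In later germ cells the Spred2 start peak fell, and that of Spred1 was not called relative to KIT-positive cells. The Spred2 start peak (chr11:19924063-19924637) held 3.17, 2.59, 6.26, 4.05 and 5.14 CPM in later libraries and 19.4, 28.2 and 23.5 CPM in control KIT-positive libraries. Every later library lay below every spermatogonial one, of which the lowest held 7.40 CPM. The peak fell by a log2 fold change of -2.51 ± 0.40 (± SE, adjusted p = 4.60e-07 in edgeR). Deleted KIT-positive libraries held 17.4, 32.8 and 33 CPM, and the 4 KIT-negative groups averaged 12.6 to 18.7 CPM. A second Spred2 peak, 605 bp inside the gene (chr11:19925047-19925960), also fell in later germ cells, with 20.1, 12.9, 14.9, 23 and 10.3 CPM in later and 37.2, 49.6 and 46.5 CPM in control KIT-positive libraries, a log2 fold change of -1.45 ± 0.29 (± SE, adjusted p = 2.74e-05 in edgeR). A peak 3764 bp before the gene (chr11:19919577-19920678) fell, with a log2 fold change of -0.70 ± 0.28 (± SE, adjusted p = 0.0300 in edgeR). That weaker call was lost on leaving out any of 5 of the 8 libraries (control KIT-positive replicate 1 or 3, or later replicate 1, 2 or 3, with adjusted p between 0.0527 and 0.0748), either titled class, or with DESeq2 size factors (0.120). A large peak near the far end of Spred2 (chr11:20020362-20021752, 95920 bp from the start) averaged 35.3 ± 11.1 CPM in later germ cells (SD, n = 5) and 24.5 ± 15.8 CPM in control KIT-positive cells (SD, n = 3). Its log2 fold change of 0.51 ± 0.32 (SE) did not pass, but passed without control KIT-positive replicate 1 (1.18, adjusted p = 0.00767), which at 42.7 CPM stood far above the other two.

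The Spred1 start peak (chr2:117120255-117121340) held 38.8, 32.3, 52.4, 59.4 and 52 CPM in later libraries, 24.8, 30.4 and 49.5 CPM in control KIT-positive libraries and 14.1, 19.8 and 22.7 CPM in control MCAM-high libraries. The later and KIT-positive ranges overlapped, and the log2 fold change of 0.38 ± 0.27 (± SE, adjusted p = 0.241 in edgeR) did not pass. Against MCAM-high cells, however, the later libraries did not overlap and the peak rose by 1.32 ± 0.28 (± SE, adjusted p = 4.98e-05 in edgeR). A neighbouring peak 486 bp inside the gene (chr2:117121557-117122022) rose in later germ cells as well. It held 13.4, 11.6, 17.2, 17.6 and 13.7 CPM in later and 1.55, 9.01 and 7.25 CPM in control KIT-positive libraries, a log2 fold change of 1.31 ± 0.50 (± SE, adjusted p = 0.0230 in edgeR). That call was lost without control KIT-positive replicate 1 (0.83, adjusted p = 0.189) and without the libraries titled round spermatids (0.155). Against control MCAM-high cells its log2 fold change was 2.53 ± 0.51 (± SE, adjusted p = 2.93e-05 in edgeR), which held when any 1 library was left out.

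The Dusp4, Dusp5 and Dusp6 products are phosphatases that dephosphorylate MAP kinases. DUSP4 and DUSP5 act in the nucleus, whereas DUSP6 acts in the cytoplasm and is specific for ERK. Dusp6 had the largest log2 fold change of the members in later germ cells. Its start peak (chr10:99262934-99263550) held 4.93, 5.82, 4.69, 4.05 and 3.43 CPM in later libraries and 56.6, 39.4 and 51.3 CPM in control KIT-positive libraries. Deleted KIT-positive libraries held 52.3, 58.4 and 45.9 CPM. MCAM-high libraries held 25.2, 45.3 and 46.9 CPM in deleted and 42.4, 39.5 and 36 CPM in control cells, and MCAM-medium libraries 50, 54.2 and 43.2 CPM in deleted and 39.9 and 43.5 CPM in control cells. Most spermatogonial groups overlapped one another, and 17 of 17 spermatogonial libraries lay above all 5 later ones. The log2 fold change of later minus control KIT-positive cells was -3.43 ± 0.30 (± SE, adjusted p = 4.48e-14 in edgeR), a linear ratio of 0.0930. It stayed between -3.59 and -3.33 when each of the 8 libraries was left out. A weaker peak 478 bp inside Dusp6 (chr10:99263709-99264139) fell, with a log2 fold change of -1.16 ± 0.45 (± SE, adjusted p = 0.0278 in edgeR), with 7.75, 5.17, 5.48, 8.78 and 4.57 CPM in later and 10.1, 15.8 and 16.9 CPM in control KIT-positive libraries. That call was lost without control KIT-positive replicate 2 or 3 or later replicate 2 or 5 (highest adjusted p = 0.111), on leaving out either titled class, and with DESeq2 size factors (0.0699). The remaining peak, 1702 bp past the gene's end and inside the lncRNA gene Gm34921, held 4.58, 6.47, 4.69, 5.40 and 9.14 CPM in later and 3.88, 2.25 and 1.81 CPM in control KIT-positive libraries. All 5 later values were higher, but the log2 fold change of 1.16 ± 0.72 (± SE, adjusted p = 0.174 in edgeR) did not pass at counts this low.

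Dusp4 was the member whose start peak rose. Its start peak (chr8:34806870-34807667) held 84.9, 70.5, 72, 83.1 and 75.9 CPM in later libraries, above every spermatogonial library. Control KIT-positive libraries held 31.8, 38.3 and 21.7 CPM and deleted ones 33.9, 31.5 and 33.8 CPM. MCAM-high libraries held 27.1, 23.7 and 26.3 CPM in deleted and 20.3, 19.8 and 22.7 CPM in control cells. MCAM-medium libraries held 24, 27.5 and 29.1 CPM in deleted and 16.6 and 19.2 CPM in control cells. The peak rose by a log2 fold change of 1.35 ± 0.25 (± SE, adjusted p = 8.95e-06 in edgeR) over control KIT-positive cells and of 1.89 ± 0.25 (± SE, adjusted p = 2.59e-09 in edgeR) over control MCAM-high cells, and both calls held when any 1 library was left out. A peak 3109 bp from the nearer end of the gene (chr8:34816306-34816785) rose by 1.12 ± 0.43 (± SE, adjusted p = 0.0235 in edgeR) over control KIT-positive cells. It lost that call without control KIT-positive replicate 2 (adjusted p = 0.0506) or 3 (log2 fold change 0.72, adjusted p = 0.206) and without the libraries titled spermatocytes (0.0723). The remaining Dusp4 peak (chr8:34807695-34807895) held 10.8 ± 2.41 CPM in later germ cells (SD, n = 5) and 4.66 ± 2.01 CPM in control KIT-positive cells (SD, n = 3). Its log2 fold change of 1.18 ± 0.54 (± SE, adjusted p = 0.0612 in edgeR) missed the threshold, and it passed with DESeq2 size factors (0.0268) and without control KIT-positive replicate 1 (0.0468).

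Dusp5 had a single peak (chr19:53528789-53529619). It held 37, 45.3, 43.8, 43.2 and 62.8 CPM in later libraries, 27.2, 45.1 and 87.6 CPM in control KIT-positive libraries and 61.5, 39.8 and 59.5 CPM in deleted KIT-positive libraries. KIT-negative libraries ranged from 18.1 to 61.3 CPM. Control KIT-positive cells minus control MCAM-high cells gave 0.88 ± 0.33 (± SE, adjusted p = 0.0565 in edgeR), which did not pass but passed without control KIT-positive replicate 1, the lowest of its group (1.18, adjusted p = 0.00888), and with no filter on low counts (0.0481). In deleted cells the same difference of 0.59 ± 0.34 (SE) passed without MCAM-high replicate 1, which at 61.3 CPM was the highest of its group (1.18, adjusted p = 0.0368). Later minus control KIT-positive cells gave -0.24 ± 0.26 (± SE, adjusted p = 0.450 in edgeR), which did not pass.

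Etv4 and Egr1 encode transcription factors that ERK signalling induces: ETV4 belongs to the ETS family and EGR1 is a zinc-finger immediate early factor. At the Etv4 start peak (chr11:101784397-101785655), which also overlaps the lncRNA gene Gm39392, later libraries held 24.7, 7.12, 17.2, 14.9 and 16 CPM and control KIT-positive libraries 46.5, 49.6 and 65.2 CPM. The groups did not overlap, and the peak fell, with a log2 fold change of -1.74 ± 0.28 (± SE, adjusted p = 7.00e-07 in edgeR). Deleted and control MCAM-high libraries held 57.7, 41.3 and 27.9 CPM and 26.4, 36.4 and 48.7 CPM. A second Etv4 peak, inside the gene 2485 bp from one end (chr11:101772232-101772901), varied widely between libraries of 1 group. It held 13, 20.3 and 28.3 CPM in deleted and 5.69 and 28.8 CPM in control MCAM-medium libraries, and 2.71, 2.71 and 9.04 CPM in deleted and 23.5, 8.53 and 1.66 CPM in control MCAM-high libraries. It was not called in any comparison.

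Egr1 had the member peak with the highest mean CPM in each of the 7 groups, chr18:34859826-34861505. Later libraries held 107, 68.6, 86.8, 105 and 72.5 CPM and control KIT-positive libraries 137, 202 and 234 CPM, without overlap, and the peak fell, with a log2 fold change of -1.13 ± 0.19 (± SE, adjusted p = 1.65e-06 in edgeR). Among spermatogonia, deleted KIT-positive libraries held 231, 190.1 and 204 CPM and deleted MCAM-high libraries 124, 143 and 141 CPM, again without overlap. That difference passed at 0.64 ± 0.21 (± SE, adjusted p = 0.0291 in edgeR). It failed without any of 5 of the 6 libraries, that is all but KIT-positive replicate 2 (highest adjusted p = 0.154), with total counts in place of TMM (0.41, adjusted p = 0.110), and with genotype and number as a block (0.0570). Control KIT-positive minus MCAM-high cells gave 0.36 ± 0.20 (± SE, adjusted p = 0.235 in edgeR), which did not pass. The difference between the genotypes was 0.28 ± 0.29 (log2, SE) and did not pass.

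**Figure D3:**
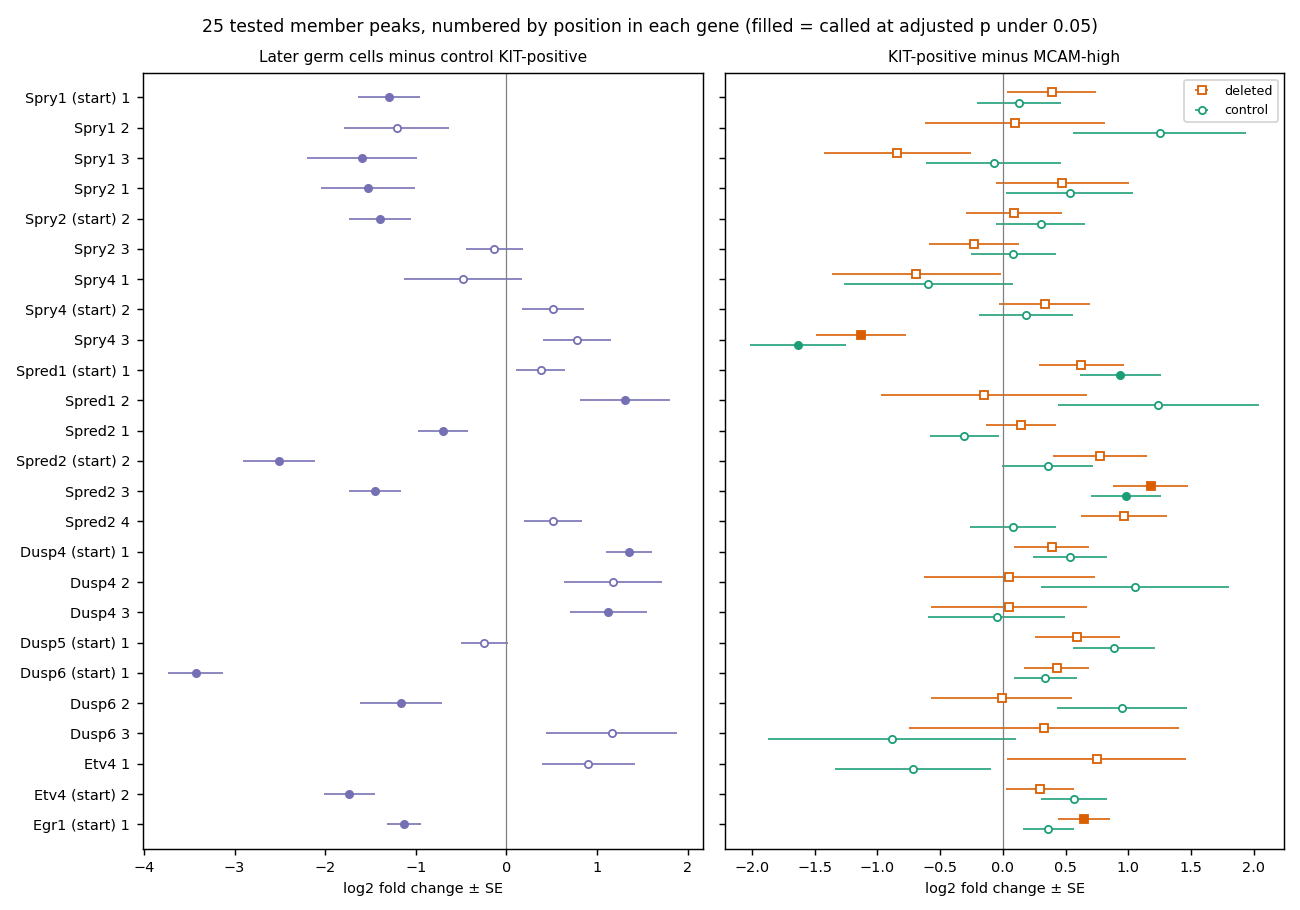
Log2 fold change ± SE (x axis) of the 25 tested member peaks, numbered by position within each gene (rows), for later germ cells minus control KIT-positive cells (left) and KIT-positive minus MCAM-high cells of each genotype (right); filled symbols are called at adjusted p under 0.05. The Dusp6 start peak lies farthest to the left at -3.43, and 3 peaks are filled in each genotype on the right.

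Relative to control MCAM-high cells, 9 member peaks were lower and 6 higher in later germ cells, against 24.9% and 33.5% of all tested peaks. The 6 start peaks that fell relative to KIT-positive cells fell here too, from -0.77 at Egr1 to -3.08 at Dusp6 (log2). The higher ones included the start peaks of Spred1, Dusp4 and Dusp5. The Dusp5 difference of 0.64 ± 0.27 (± SE, adjusted p = 0.0347 in edgeR) was lost without control MCAM-high replicate 1 or 2, later replicate 3 or 5 (highest adjusted p = 0.146), the libraries titled round spermatids, or with total counts (0.123). Without the libraries titled round spermatids the Spry1, Spry2 and Egr1 start peaks were no longer called, at adjusted p = 0.300, 0.193 and 0.0651. Of the weaker calls, the distant Spry1 peak (-1.66) and the peak before Spred2 (-1.0) were lost without control MCAM-high replicate 3 (adjusted p = 0.0594 and 0.0561), and the inner Dusp4 peak (1.08) without control MCAM-high replicate 2 (0.0841), without the libraries titled spermatocytes (0.0570) or with total counts (0.0561). The distant Spry1 peak was also lost without the libraries titled round spermatids (0.147). Other peaks were called here under 1 or more alternatives: the far Spred2 peak with DESeq2 size factors (0.82, adjusted p = 0.0166) and without control MCAM-high replicate 3 (0.0390) or later replicate 5 (0.0363), the peak inside Spry2 with total counts (-1.20, 0.0403) and without later replicate 3 (0.0335), the Spred2 peak 605 bp inside the gene with total counts (-0.69, 0.0311), and the second Etv4 peak without control MCAM-high replicate 1 (1.33, 0.0252). The median of all peaks was 0.01 with TMM, 0.22 with DESeq2 size factors and -0.20 with total counts. This comparison shares the later libraries with the one above.

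From MCAM-high to KIT-positive spermatogonia few member peaks changed. In deleted cells 2 of 25 rose and 1 fell, while 9.39% of all 57289 tested peaks were called higher and 4.35% lower. In control cells 2 rose and 1 fell, while 9.64% were called higher and 6.11% lower. The members' shares, 8.00% and 4.00% in both genotypes, were near these backgrounds. The Spred2 peak 605 bp inside the gene rose in both. It held 33.9, 53.9 and 36.2 CPM in deleted KIT-positive and 20.7, 16.2 and 18.9 CPM in deleted MCAM-high libraries, and 37.2, 49.6 and 46.5 CPM in control KIT-positive and 25.4, 18 and 24.4 CPM in control MCAM-high libraries. Groups of a genotype did not overlap, and the log2 fold changes were 1.18 ± 0.30 (± SE, adjusted p = 0.00538 in edgeR) in deleted and 0.98 ± 0.28 (± SE, adjusted p = 0.0113 in edgeR) in control cells. The deleted call held without any 1 library, and the control call was lost without MCAM-high replicate 2 (adjusted p = 0.0807). The peak that fell in both genotypes was the one 349 bp outside Spry4.

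The Spred1 start peak rose in control KIT-positive cells by 0.94 ± 0.32 (± SE, adjusted p = 0.0387 in edgeR). That call was lost without any of 4 of the 6 libraries: control KIT-positive replicate 2 (0.0503) or 3 (log2 fold change 0.56, 0.367), or MCAM-high replicate 1 (0.139) or 2 (0.0848). It was also lost with total counts in place of TMM (0.0960), with no filter on low counts (0.0664), with only the compared groups fitted (0.0663), and with the replicate number (0.0559) or genotype and number (0.0680) as a block, and it held with DESeq2 size factors (0.0403) and DESeq2 (0.0473). In deleted cells the same peak gave 0.63 ± 0.34 (± SE, adjusted p = 0.220 in edgeR) and did not pass. Most other member peaks lay above 0 without passing: 19 of 25 log2 fold changes in deleted and 18 of 25 in control cells were positive, with medians of 0.33 in deleted and 0.34 in control cells. All tested peaks had medians of -0.05 in both, and gene-end peaks of 0.17 in deleted and 0.19 in control cells. With total counts in place of TMM the medians of all peaks moved to -0.28 in deleted and -0.22 in control cells, and the Spry2 start peak in deleted cells and the Spry1 start peak and far Spred2 peak in control cells changed sign. The unadjusted p was under 0.05 at 5 member peaks in each genotype, and DESeq2 called 3 in each.

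Between MCAM-medium and MCAM-high cells no member peak was called. Deleted MCAM-medium minus deleted MCAM-high gave 0 called members (0.0140% of all peaks called, 5 members with unadjusted p under 0.05, 0 by DESeq2). Control MCAM-medium minus control MCAM-high gave 0 (0% of all peaks called, 0 members with unadjusted p under 0.05, 0 by DESeq2). Relative to MCAM-medium cells, control KIT-positive cells differed at 2 members, where 9.32% of all peaks were called. They were the Spred2 peak inside the gene (1.07 ± 0.32, SE, adjusted p = 0.0262 in edgeR) and the peak outside Spry4 (-1.55 ± 0.41, SE, adjusted p = 0.0124 in edgeR). With only 2 control MCAM-medium libraries, both calls were lost without either of them, and also without control KIT-positive replicate 3 (adjusted p between 0.0518 and 0.213). With genotype and number as a block the Spred2 call was lost and the count was 1. The Spred2 call was lost without control KIT-positive replicate 2 as well (0.0693). Without control KIT-positive replicate 1 the count was 3, Dusp5 having joined (adjusted p = 0.0257). Deleted KIT-positive minus deleted MCAM-medium gave 1 member, where 6.87% of all peaks were called. It was the far Spred2 peak, with 35.8, 36.6 and 53.1 CPM in KIT-positive and 21.4, 15.9 and 15.7 CPM in MCAM-medium libraries and no overlap (1.23 ± 0.35, SE, adjusted p = 0.0212 in edgeR). In deleted KIT-positive minus deleted MCAM-high cells the same peak missed the threshold (0.96 ± 0.34, SE, adjusted p = 0.0523 in edgeR), and it passed with only the compared groups fitted (0.0348), with no filter on low counts (0.0498) and without MCAM-high replicate 3 (0.0498). The call against MCAM-medium cells was lost without KIT-positive replicate 3 (0.117) or MCAM-medium replicate 2 (0.0903) or 3 (0.0766), and with total counts (0.0655). Without KIT-positive replicate 3 the second Etv4 peak was called lower instead (-2.47, adjusted p = 0.0466).

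No member peak was called for TERT deletion. Calls numbered 0 in MCAM-high, MCAM-medium and KIT-positive cells and in the mean of the 3, where 0.0489%, 0.00873%, 0.00349% and 0.124% of all tested peaks were called and 0.0442% of gene-end peaks in the mean. The unadjusted p was under 0.05 for 1, 0, 1 and 1 members in these comparisons, and DESeq2 called 0 in each. The nearest in the mean was the Spry4 start peak. It held 17.1, 18.3 and 23.8 CPM in deleted and 15.6, 8.08 and 17.2 CPM in control MCAM-high libraries, 11.7, 19.5 and 25.9 CPM in deleted and 17.1 and 15.8 CPM in control MCAM-medium libraries, and 17.4, 30.2 and 25.7 CPM in deleted and 14, 18 and 14.5 CPM in control KIT-positive libraries. The deleted mean was the higher in each population, and the groups overlapped in each. At other start peaks the genotypes did not overlap in some populations: 1 was higher and 1 lower in deleted cells among MCAM-high libraries, and 3 were higher among MCAM-medium libraries. Dusp4 was the higher in both, with the values given above (log2 fold changes 0.27 ± 0.30, SE, adjusted p = 0.998 in edgeR in MCAM-high and 0.56 ± 0.34, SE, adjusted p = 1 in edgeR in MCAM-medium cells). Etv4 and Spred1 were the others in MCAM-medium cells, and Egr1 was the lower one in MCAM-high cells. With so few libraries a group, such separation can arise by chance, and its share over all peaks was not counted. None of these differences was called. For Spry4 the mean log2 fold change was 0.45 ± 0.22 (± SE, adjusted p = 0.901 in edgeR), with an unadjusted p of 0.0468. The others with an unadjusted p under 0.05 were a weak Dusp4 peak in MCAM-high cells (1.60 ± 0.72, SE, adjusted p = 0.788 in edgeR) and the far Spred2 peak in KIT-positive cells (0.76 ± 0.34, SE, adjusted p = 1 in edgeR).

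At the start peaks the mean effect of deletion ran from -0.23 ± 0.22 at Spry2 to 0.45 ± 0.22 at Spry4 (log2, SE). It was 0.08 ± 0.15 at Dusp6, 0.20 ± 0.16 at Etv4, 0.0031 ± 0.12 at Egr1 and 0.32 ± 0.18 at Dusp4. The median SE over the 25 peaks was 0.22 for the mean and 0.36, 0.41 and 0.37 in MCAM-high, MCAM-medium and KIT-positive cells. Changes well above the SE also did not pass, among them 0.45 at Spry4 in the mean and 1.60 at the weak Dusp4 peak in MCAM-high cells. Effects of such sizes could therefore be missed at this depth. Of the 25 mean effects, 18 were above 0 and the median was 0.08, against -0.01 over all tested peaks. Differences between genotypes in the stage changes were called at 0 members and at 0% of all peaks for KIT-positive minus MCAM-high, KIT-positive minus MCAM-medium and MCAM-medium minus MCAM-high. The unadjusted p was under 0.05 for 0, 1 and 1 members, and DESeq2 called 0. The member in the second was the peak outside Spry4 (1.34 ± 0.56, SE, adjusted p = 1 in edgeR), and in the last the weak Dusp4 peak (-2.50 ± 1.11, SE, adjusted p = 1 in edgeR).

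**Figure D4:**
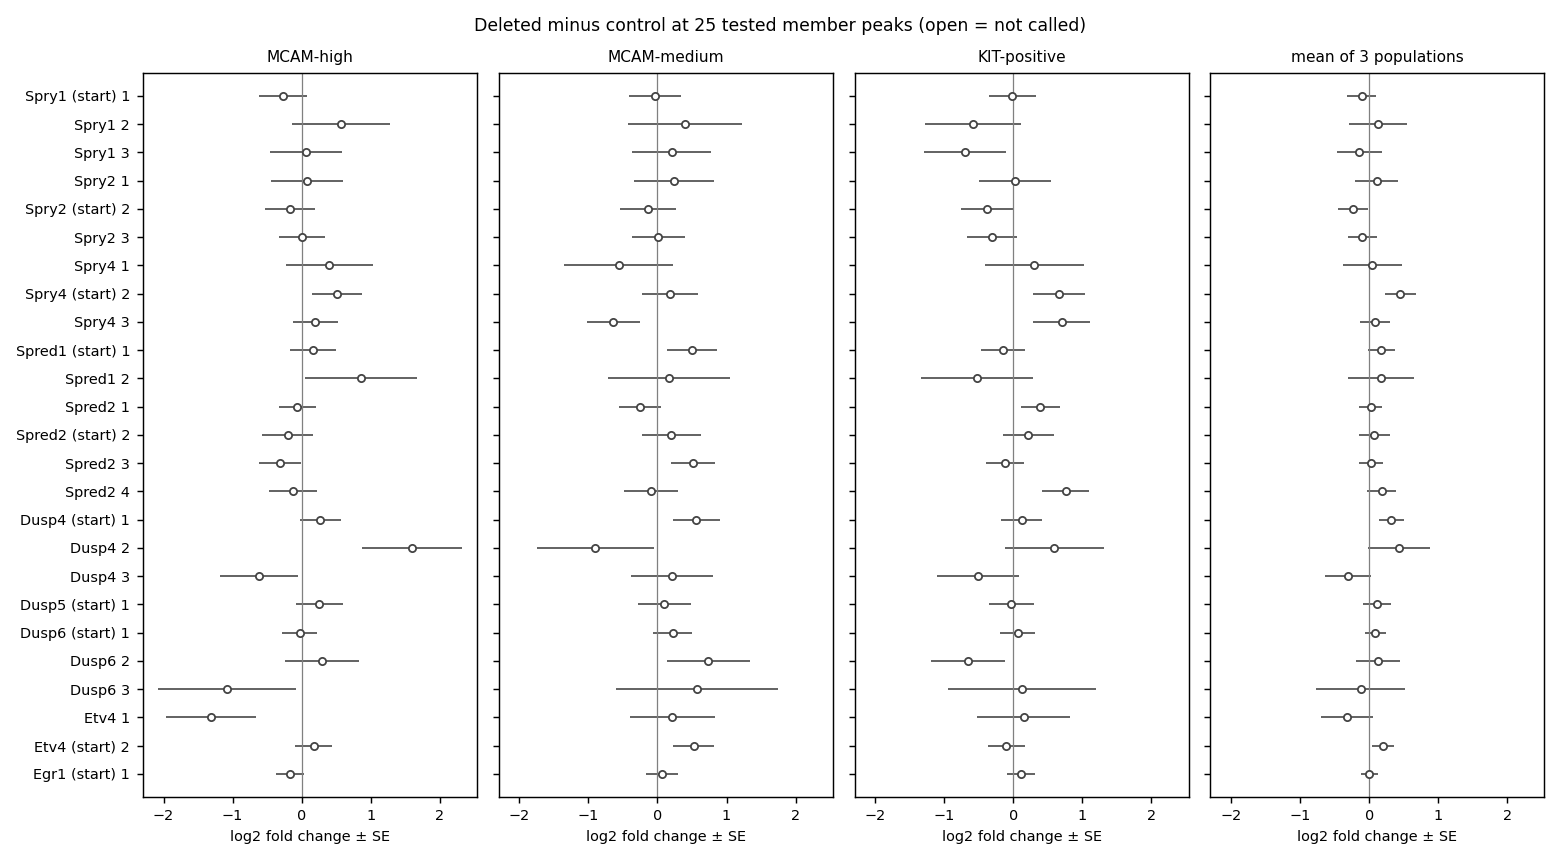
Log2 fold change ± SE (x axis) of deleted minus control cells at the 25 tested member peaks (rows, numbered by position within each gene) in each population and in the mean of the 3; open symbols were not called. No symbol is filled, and in the mean the start peaks lie between -0.23 and 0.45.

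Both member peaks that were too low to test had few counts. The Spred1 peak 126 bp past the gene's end (chr2:117182405-117182606) held 6.42, 5.78 and 5.63 CPM in deleted and 6.98, 2.25 and 4.23 CPM in control KIT-positive libraries, and at most 2.17 CPM elsewhere. Every KIT-positive library lay above every other one, but these values rest on 2 to 9 counts a library, and no test was made. The Spred2 peak inside the gene at chr11:19965135-19965465 held 0.352, 0.647, 1.56, 2.03 and 0 CPM in later libraries and 0 to 6.42 CPM in spermatogonia. Levels per kb allow the start peaks of the genes, not the whole genes, to be compared. Egr1 was first in all 6 spermatogonial groups, with 124 CPM per kb in deleted and 114 CPM per kb in control KIT-positive cells. Dusp6 was the second, with 84.7 and 79.8 CPM per kb in these groups. In later germ cells Dusp4 was first with 97.0 CPM per kb, followed by Dusp5 (55.9) and Egr1 (52.5), and Dusp6 and Spred2 were last with 7.44 and 7.39. The other Spred2 peaks held 19.5, 17.8, 2.78 and 25.4 CPM per kb in later germ cells. These values were not tested against each other.

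The rest of the pathway was read at 1 gene-end peak per gene for 80 listed genes, of which 75 could be tested for later germ cells and 74 among spermatogonia. In later germ cells relative to control KIT-positive cells, 29 fell and 6 rose, with a median log2 fold change of -0.41 against -0.12 over gene-end peaks, of which 28.4% were called lower and 24.0% higher. Of the 8 tested receptors, 5 fell: Fgfr1 (-1.93 ± 0.32, SE), Egfr (-1.73 ± 0.33), Kit (-1.61 ± 0.25), and the GDNF receptor genes Ret (-1.47 ± 0.29) and Gfra1 (-0.96 ± 0.34). Of 14 other feedback genes 6 fell, led by Dusp9 (-2.66 ± 0.38), another ERK phosphatase, and Lrig1 (-2.44 ± 0.24), a receptor inhibitor, and Spred3 rose (1.26 ± 0.24). Of 18 nuclear factors and targets 7 fell, among them Elk1 (-3.04 ± 0.31), which acts with serum response factor, Mycn (-2.64 ± 0.48), Fosl2 (-2.52 ± 0.30) and Etv5 (-1.51 ± 0.20), and 3 rose (Egr3, 1.56 ± 0.32; Fosl1, 1.10 ± 0.32; Srf, 0.93 ± 0.33). Of 17 adaptors and RAS regulators 5 fell and 1 rose, and of 12 kinases and scaffolds 5 fell, among them Rps6ka3 (-1.94 ± 0.26), an ERK-activated kinase, and 1 rose, Mapk3 (0.83 ± 0.31), which encodes ERK1. Of 6 ligands 1 fell, Kitl (-1.64 ± 0.31). Genes on the X chromosome, among them Dusp9, Elk1 and Rps6ka3, were not set apart in these counts or in the gene-end background. The part of chromosome in these losses was not tested.

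Between KIT-positive and MCAM-high cells most of the called genes of this list were higher. In deleted cells 13 of 74 genes rose and 1 fell, while 14.5% of gene-end peaks were called higher and 3.31% lower. In control cells 12 rose and 2 fell, while 15.1% were called higher and 4.46% lower, so that both counts of risers were near the background. Adaptors and kinases among those that rose in control cells included Grb2 (1.57 ± 0.30), the adaptor that brings SOS to receptors, Hras (1.51 ± 0.29), Braf (1.43 ± 0.40), Mapk3 (1.24 ± 0.42) and Map2k1 (1.15 ± 0.23), which encodes MEK1. Kit, whose product was used for the sort, rose by 1.01 ± 0.27 in deleted and 0.99 ± 0.26 in control cells. Of the feedback genes outside the 10, Dusp7 rose in both genotypes (0.93 ± 0.27 in deleted and 0.74 ± 0.26 in control cells), Cbl, Lrig1 and Il17rd in deleted cells and Dusp8 in control cells. Elk1 fell in both (-0.71 ± 0.25 and -0.74 ± 0.24), and Csf1 fell in control cells (-0.90 ± 0.26). For TERT deletion 0 of 74 were called in the mean.

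**Figure D5:**
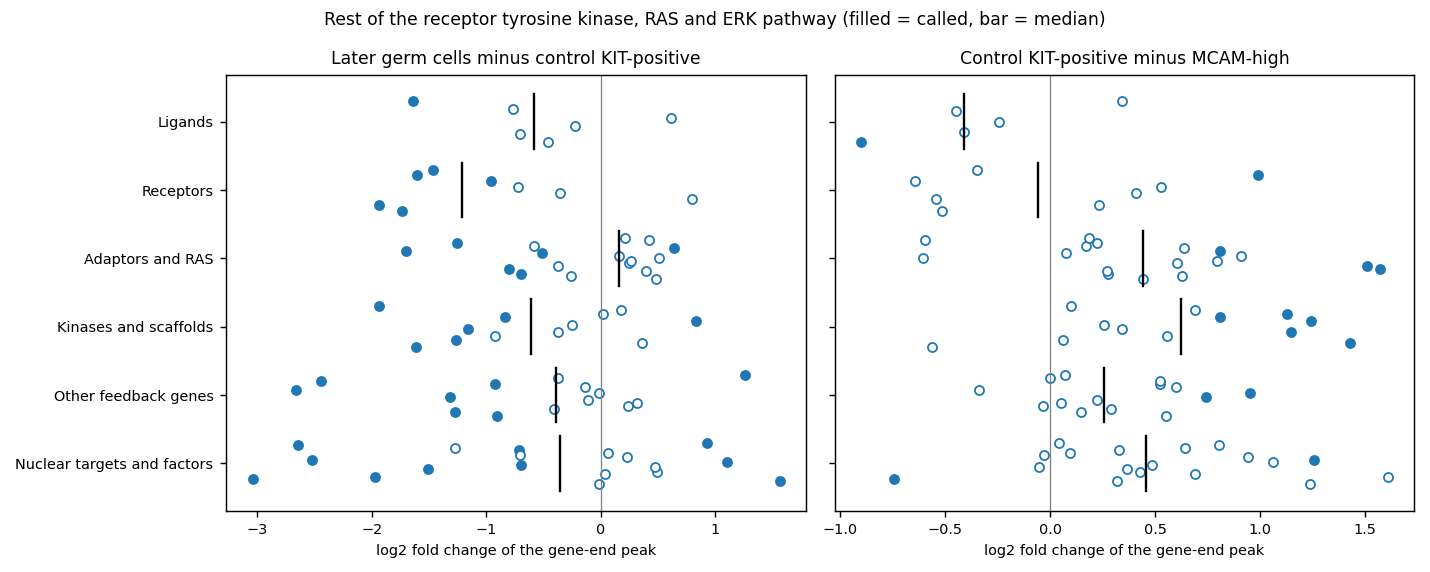
Log2 fold change (x axis) of 1 gene-end peak per gene for the listed pathway genes, by role (rows), for later germ cells minus control KIT-positive cells (left) and control KIT-positive minus MCAM-high cells (right); each point is a gene, filled where called, and bars are medians. Receptors have the lowest median on the left, -1.21, and kinases and scaffolds the highest on the right, 0.62.

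Start peaks called in any comparison, all but that of Spry4, were set against the gene-end peaks of other genes. The most like were sought over all 22 libraries by Pearson's r of log2(CPM + 1) among 22088 peaks. These are descriptions, since the libraries share the difference between later germ cells and spermatogonia. The Dusp6 start peak was most like those at Gm42369/Kmt5c (r = 0.982), Zfp78 (0.977) and Gm39488/Hdac6 (0.976). Dusp4 was most like Gm32425 (0.968), Rnf121 (0.964) and Gm32055 (0.959). For the transcription factors, Egr1 was most like Dut (0.939) and Etv4 most like Kmt2a (0.933). For the inhibitors, Spred2 was most like Ccdc126 (0.932), Spry1 like Abca2 (0.907), Spred1 like 2700062C07Rik (0.893) and Spry2 like Nexmif (0.862), and Dusp5 was most like Ralgapa2 (0.827).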

How the data were processed

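The values were raw read counts in 96049 peaks, deposited by the authors as 1 table for 22 libraries. The submitters' processing notes name FastQC, Bowtie2, SAMtools and Picard, and the builds mm10, GRCm38 and hg19, without versions. The peak caller, the merging of peaks, the counting, any Tn5 offset and the filters on duplicates are not given in the sources used here, nor is whether peak starts count from 0 or 1.

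Gene bounds came from the RefSeq table (GRCm38.p6). Member peaks overlapped a gene or its 5 kb flanks by at least 1 bp. edgeR 4.0.16 (R 4.3.3, limma 3.58.1) fitted quasi-likelihood models with TMM scaling and its filter on low counts: 17 spermatogonial libraries by group (57289 peaks tested), and 13 control libraries for later germ cells (73134 peaks). Benjamini-Hochberg adjustment ran over all tested peaks, with a threshold of 0.05. Standard errors are the absolute log2 fold change over the root of the F statistic. The scripts were tested on simulated counts. Other work used Python 3.11.15, pandas 2.3.3, numpy 2.4.6 and matplotlib 3.10.9.

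All 10 genes are named, each by its start peak and by its peak with the smallest p in the main comparisons. Other peaks are mentioned where called or low. The members and lists were chosen with earlier results of these data known. Alternatives were DESeq2 1.42.0, its size factors, total counts, no low-count filter, other flanks, only the groups compared, the replicate number as a block, and leaving out each library. Library names share a stem within genotype and number, but no label states a shared mouse. Over 24 same-number pairs, correlations of deviations ran from -0.42 to 0.09. Deviations from a mean of so few libraries constrain each other, so these values cannot show whether libraries of a number are paired. The main analysis has no block because the labels do not state a shared source. Blocks of number and of genotype and number were alternatives. The labels do not say which libraries are separate mice, and the spread behind each p-value, that between libraries, may thus be technical. Floors cover counting error only.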

Additional observations from a re-analysis of the deposited data

Results flagged for a closer look

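At the Spry4 start peak, later germ cell replicate 3 held 12.5 CPM, whereas the other 4 later libraries held 22.8 to 27.0 CPM, a gap large enough for Dixon's test at the 95% level. Chance flags about 1 in 20 groups.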

How the results depend on the processing

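No called member peak changed sign under any alternative run. The counts of called member peaks were the following where they moved by more than 1.5 times. For control KIT-positive minus MCAM-medium (2 in the main analysis), the count was 1 with gene bodies alone, with total counts, with no filter on low counts, with only the compared groups fitted, and with a replicate block of genotype and number. For deleted KIT-positive minus MCAM-high (3), it was 5 with 10 kb flanks. For deleted KIT-positive minus MCAM-medium (1), it was 0 with total counts and 2 with only the compared groups. For deleted MCAM-medium minus MCAM-high (0), it was 1 with no filter and 1 with only the compared groups. For later germ cells minus control KIT-positive (14), it was 9 without the libraries titled round spermatids, an alternative chosen after seeing the data. The causes were not tested.

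Leaving out 1 library gave 1 to 4 called members for control KIT-positive minus MCAM-high, 0 to 3 for control KIT-positive minus MCAM-medium, 1 to 3 for deleted KIT-positive minus MCAM-high, 0 to 1 for deleted KIT-positive minus MCAM-medium, 10 to 13 for later germ cells minus control KIT-positive, 13 to 17 for later germ cells minus control MCAM-high, and 0 for every deletion comparison. The lone library left in control MCAM-medium is assumed to vary like the other groups. With the replicate number as a block, control KIT-positive minus MCAM-high gave 2 (the Spred1 start peak was lost), deleted KIT-positive minus MCAM-high 3 and the deletion comparisons 0. With genotype and number as a block, control KIT-positive minus MCAM-high gave 2 (Spred1 lost) and deleted KIT-positive minus MCAM-high 2 (Egr1 lost). Depth limits the weakest peaks: 3 counts correspond to as much as 3.25 CPM.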
